A study of Homo sapiens with 8 samples.

Results

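The 10 genes described here act in presentation of peptides by MHC class II molecules: CIITA, CD74, HLA-DRA, HLA-DRB1, HLA-DQA1, HLA-DQB1, HLA-DPA1, HLA-DPB1, HLA-DMA and HLA-DMB. They were taken as a named list from 19881 protein-coding genes of the annotation. The list was not set by a measured value, but earlier results of these data were known when it was chosen. For each gene, the number of base pairs covered by ChIP-seq islands was computed over the gene body and 2000 bp upstream. The cells were PC9, a human lung adenocarcinoma line, and they were treated for 5 days with DMSO or with 1 μM GSK126, a small molecule inhibitor of the histone methyltransferase EZH2. All samples also received a small amount of Drosophila melanogaster chromatin and an antibody against the fly histone variant H2Av, in DMSO and GSK126 samples alike. There were 8 libraries in 4 groups: H3K27me3 from cells with DMSO, H3K27me3 from cells with GSK126, H3K4me3 from cells with DMSO and H3K4me3 from cells with GSK126, with 2 replicates each. The study describes its replicates as biological, and the labels do not say from which cultures they came.

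MHC class II molecules are pairs of an alpha and a beta chain (HLA-DR, HLA-DQ and HLA-DP) that carry peptides from outside the cell to its surface for CD4+ T cells. CD74, the invariant chain, fills the groove of a new molecule until HLA-DM, a pair made of HLA-DMA and HLA-DMB, helps exchange its remnant for peptide. CIITA is the coactivator that switches these genes on together. It does not bind DNA itself but joins the RFX, CREB and NF-Y factors at short elements of each class II promoter called the X and Y boxes. Professional antigen-presenting cells make CIITA all the time, while epithelial cells can make it in response to interferon-gamma, and different promoters of CIITA serve different cells. H3K27me3 is written by EZH2 in Polycomb repressive complex 2 and marks repressed chromatin, and H3K4me3 marks starts of genes that are active or ready to be.

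The promoters of 4 of the genes are given because class II promoters are where CIITA acts and because both outcomes over whole genes with GSK126 occur among them. In the island lists normalized with the fly chromatin, CD74 and HLA-DRB1 lost all H3K27me3 islands, and HLA-DMB and HLA-DPB1 kept some. The printed promoters do not show this split. With GSK126, that of HLA-DMB was covered in neither replicate and that of HLA-DPB1 in replicate 1 only. The HLA-DRB1 promoter was not covered in DMSO replicate 1. Each printed promoter is the 250 bases before the gene start, written 5′ to 3′ on the strand of the gene. RefSeq promoters (table build GRCh38.p14) were found for 8 of the 10 genes but not for HLA-DRA and CIITA, which were therefore not compared. Those found matched GRCh37, the build of the islands, exactly. Each matched at 1 place on the chromosome and strand of its gene, where alone it was sought. On GRCh37 the printed stretches are chr5:149792474-149792723 (minus strand) for CD74, chr6:32557626-32557875 (minus) for HLA-DRB1, chr6:32908806-32909055 (minus) for HLA-DMB and chr6:33043517-33043766 (plus) for HLA-DPB1. Capitals mark letters from the X box, ACNGATG, and from the Y box, ATTGG, searched on both strands, so that CATCTGT and CCAAT are matches on the other strand. The letters of both were chosen with these sequences in view.
CD74: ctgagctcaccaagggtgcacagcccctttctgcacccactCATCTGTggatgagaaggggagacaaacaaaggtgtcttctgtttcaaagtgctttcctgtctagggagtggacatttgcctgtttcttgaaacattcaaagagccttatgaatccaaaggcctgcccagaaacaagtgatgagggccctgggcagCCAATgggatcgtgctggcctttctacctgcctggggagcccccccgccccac
HLA-DRB1: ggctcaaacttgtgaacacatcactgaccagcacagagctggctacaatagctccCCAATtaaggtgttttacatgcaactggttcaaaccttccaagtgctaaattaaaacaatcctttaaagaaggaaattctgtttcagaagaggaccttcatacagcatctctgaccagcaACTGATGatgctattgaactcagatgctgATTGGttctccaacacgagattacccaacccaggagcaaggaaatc
HLA-DMB: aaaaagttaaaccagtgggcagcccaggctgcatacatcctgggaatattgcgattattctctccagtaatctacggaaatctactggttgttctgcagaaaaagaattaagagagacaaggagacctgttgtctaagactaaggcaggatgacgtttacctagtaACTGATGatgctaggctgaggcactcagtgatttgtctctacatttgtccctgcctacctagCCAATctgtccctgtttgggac
HLA-DPB1: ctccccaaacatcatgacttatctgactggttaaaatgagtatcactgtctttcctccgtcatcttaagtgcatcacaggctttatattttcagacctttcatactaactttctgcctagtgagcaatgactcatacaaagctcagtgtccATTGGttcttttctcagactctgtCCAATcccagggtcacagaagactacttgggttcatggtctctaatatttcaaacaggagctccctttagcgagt

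The X letters were found in 5 of the 8 promoters. On the strand of the gene they lay 75 to 69 bases before the start of HLA-DRB1, 84 to 78 before that of HLA-DMB, 109 to 103 before that of HLA-DMA and 117 to 111 before that of HLA-DQB1. In CD74 the match was on the other strand, 209 to 203 bases before the start, and HLA-DQA1, HLA-DPA1 and HLA-DPB1 held no X match. In HLA-DRB1, HLA-DMA and HLA-DQB1 a Y match on the same strand followed 46 to 42, 79 to 75 and 88 to 84 bases before the start, while in HLA-DMB the Y match was on the other strand, 22 to 18 bases before the start. No X match overlapped a Y match. Of the same 250 bases of 35116 promoters, 6.35% held the X letters, 32% the Y letters and 2.05% both. These are matches of letters and not measured binding sites. The windows were poor in CpG: 7 of the 8 genes had 1 to 7 CpG in 300 bases, against a median of 14 over all promoters. HLA-DPA1 has 2 annotated starts, and its windows held 27 CpG at the upstream start and 4 at the downstream start.

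An island is a run of enriched 200-bp windows, relative to randomly placed tags, bridged over gaps of up to 600 bp for H3K27me3 and 200 bp for H3K4me3. For each H3K27me3 library and each H3K4me3 library with GSK126 there were 2 lists. In the standard lists the larger library of a replicate had been reduced to the tag number of the smaller, and in the spike-in lists tags had been removed until the fly tags of a replicate were level. The H3K4me3 libraries from DMSO cells came with 1 list apiece, which serves both comparisons. The lists give no tag counts, but the scores of short islands give the mean tags per window. In the H3K27me3 spike-in lists, this was 1.65 and 2.33 with DMSO (replicates 1 and 2) and 0.382 and 0.455 with GSK126. After standard normalization it was 1.36 and 1.55 for both treatments. A stretch with no island is therefore a stretch where enrichment was not detectable at that depth, not one shown to lack the mark. The H3K4me3 lists held 1.48 to 1.77 tags per window in replicate 1 and 0.263 to 0.302 in replicate 2. All comparisons were made within a replicate, and with 2 pairs an exact sign-flip test (two-sided) cannot go below p = 0.5, so values of both replicates are given in place of p-values.

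The labelled cell type was checked against marker genes. The starts of all 7 epithelial genes examined (EPCAM, CDH1, KRT8, KRT18, KRT19, NKX2-1 and EGFR) lay in H3K4me3 islands in both DMSO libraries, whereas of 7 blood cell genes only CD14 had its start in such an island. Of all genes, 60.6% had their start in one. PTPRC, which encodes CD45, held no H3K4me3 island in any list. CD14 is a monocyte gene, and SPI1 also held an H3K4me3 island in both DMSO libraries, though not at its start. H3K27me3 islands overlapped 5 of the 7 blood cell genes in both DMSO libraries (MS4A1, CD79A, ITGAX, SPI1 and CD3E) and 2 of the 7 epithelial genes (NKX2-1 and EGFR). In the spike-in lists they overlapped 27.8% of all genes, so the epithelial count was near that share.

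With DMSO, the class II genes were marked by H3K27me3 and held few H3K4me3 islands. H3K27me3 islands of the spike-in lists overlapped all 10 genes in both replicates, against 27.8% of all protein-coding genes. The canonical start lay in an H3K27me3 island in both replicates for 6 of them (CIITA, CD74, HLA-DQA1, HLA-DPA1, HLA-DPB1 and HLA-DMB), against 15.2% of all genes. An H3K4me3 island overlapped only CIITA and HLA-DMA, against 68.6% of all genes, and it covered the canonical start of none of the 10, against 60.6%.

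With GSK126, all 10 genes had less H3K27me3 cover in both replicates of the spike-in lists. A decrease of at least 1 window in both replicates was found for 76.5% of all genes with an island (4902 of 6412) and an increase for 0.343%, so a fall was the common outcome. Only genes covered with DMSO in both replicates could be called lower. These were 5533 genes, all 10 class II genes among them, so the matching background is 4902 of 5533 and higher than 76.5%. No islands were left in either replicate over 6 of the 10 genes (CD74, HLA-DRA, HLA-DRB1, HLA-DQA1, HLA-DQB1 and HLA-DMA), against 32% of the genes covered with DMSO. The other 4 of the 10 kept an island in both replicates, against 56% of the genes that had one with DMSO in both. Of the 6 class II genes with the canonical start in an island with DMSO, CIITA and HLA-DPA1 kept it there in both replicates, against 47.5% of such genes. As a share of all genes, 15.6% held an island and 7.34% had the canonical start in one with GSK126. When only islands with at least 2 times the lowest score of their list were counted, 6 of the 10 genes were lower in both replicates: CD74, HLA-DRB1 and HLA-DMA then held no island with DMSO, and HLA-DRA held one in replicate 2 only. Taken over the 201060 bp of the 10 genes, islands covered 86991 and 101196 bp with DMSO and 37468 and 29468 bp with GSK126. The log2 ratio was -1.50 ± 0.40 (SD, n = 2), with a decrease of 56.9% in replicate 1 and 70.9% in replicate 2. Over the whole genome it was -1.14 ± 0.05 (SD, n = 2), or 53.7% and 55.8% less. In replicate 1 the class II genes were thus close to the genome, and in replicate 2 they lost more.

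**Figure D1:**
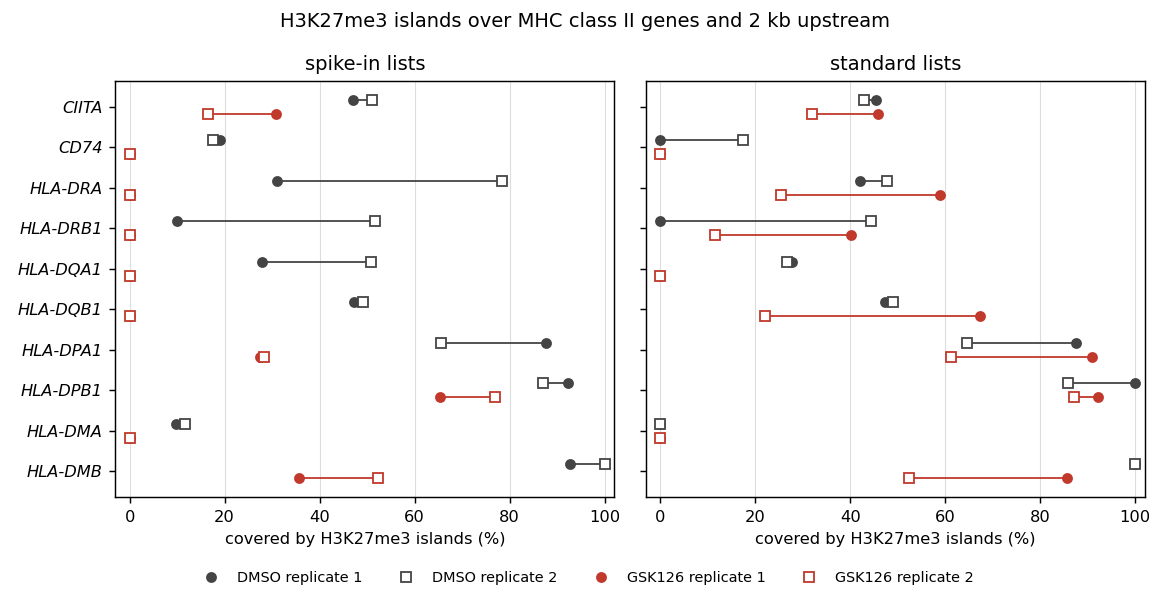
Percentage of each gene body plus 2 kb upstream covered by H3K27me3 islands (horizontal axis) for the 10 genes (rows), in the spike-in lists (left) and the standard lists (right). Grey symbols are DMSO and red symbols GSK126, filled circles replicate 1 and open squares replicate 2, and a line joins the 2 replicates of a treatment. In the spike-in lists every DMSO symbol lies to the right of the GSK126 symbol of the same gene and replicate, and 6 genes are at 0 with GSK126. In the standard lists this holds in both replicates for HLA-DQA1 and HLA-DMB only.

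CIITA (ENSG00000179583, GRCh37 chr16:10960079-11036878, plus strand) held the longest cover of the 10 genes. Its values and those of the genes that follow are from the spike-in lists unless the standard lists are named. Islands covered 37000 and 40200 bp with DMSO, compared with 24200 and 13000 bp after GSK126. Thus 65.4% of the DMSO cover was left in replicate 1 and 32.3% in replicate 2, and the size of the loss differed more between replicates than for HLA-DPA1, HLA-DPB1 or HLA-DMB. In the spike-in lists the losses were not spread evenly along the gene. The first island with DMSO, of 3600 and 3400 bp, lay over the 2 annotated starts about 11 kb upstream of the canonical start, at 10960079 and 10960117, and it was present in neither GSK126 list. The second island spanned the canonical start at 10971059. It measured 7800 and 8800 bp with DMSO and 4600 and 4800 bp with GSK126, so that its upstream edge moved from 3.66 and 4.06 kb before the start to 0.658 and 0.458 kb before it. Farther downstream, GSK126 lists held islands between 10.3 and 33.7 kb in replicate 1 and between 11.9 and 32.1 kb in replicate 2. Most were shorter than with DMSO, but in replicate 1 an island of 2200 bp with DMSO (20.7 to 22.9 kb) was longer with GSK126. It then measured 4600 bp (19.3 to 23.9 kb). The standard lists did not show these changes at the 5′ end. There the first island was absent with both treatments. The upstream edge of the island over the canonical start lay 3.66 and 2.66 kb before it with DMSO. With GSK126 this edge lay 4.06 and 2.86 kb before the start.

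CD74 (ENSG00000019582, chr5:149781200-149792532, minus strand), the chaperone of the class II molecule, held a single island across its start with DMSO, which covered 2532 and 2332 bp of the stretch counted. No island was called with GSK126. The whole of the CD74 promoter window printed above lay in the island in both DMSO lists, and in the standard lists in DMSO replicate 2 only. The CD74 island was weak, as its score stood at the 13.2 and 8.34 percentile of the DMSO lists.

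HLA-DRA (ENSG00000204287, chr6:32407655-32412823, plus strand) encodes the alpha chain of HLA-DR. It had 2223 and 5623 bp covered with DMSO and 0 with GSK126. In replicate 1 the islands began 2.14 kb inside the gene, while in replicate 2 a single island ran across the start. HLA-DRB1 (ENSG00000196126, chr6:32545679-32557625, minus strand), the main beta chain partner, had 1400 and 7200 bp covered with DMSO and 0 with GSK126. The same island of 1400 bp was called in both replicates within HLA-DRB1, and the promoter printed above was covered in replicate 2 only. For both HLA-DR genes the DMSO replicates thus differed by more than 2000 bp, and neither start was covered in replicate 1.

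HLA-DQA1 (ENSG00000196735, chr6:32595956-32614839, plus strand), the HLA-DQ alpha chain, had 5800 and 10600 bp covered with DMSO, and the island began 2.78 kb before its start in both replicates. HLA-DQB1 (ENSG00000179344, chr6:32627244-32636160, minus strand), the beta chain, had 5157 and 5357 bp covered, in 2 islands at its ends. With GSK126 neither HLA-DQ gene held an island. These islands ranked in the middle of the DMSO lists, with scores at the 50.2 and 62.2 percentile for HLA-DQA1 and 49.1 and 60.6 for HLA-DQB1.

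HLA-DPA1 (ENSG00000231389, chr6:33032346-33048552, minus strand) and HLA-DPB1 (ENSG00000223865, chr6:33043767-33057473, plus strand) encode the HLA-DP chains. Their gene bodies overlap on opposite strands, so their covered lengths share bases and are not independent. HLA-DPA1 fell from 15952 and 11952 bp with DMSO to 5000 and 5152 bp with GSK126, which left 31.3% and 43.1%. HLA-DPB1 fell from 14507 and 13673 bp to 10273 and 12073 bp, which left 70.8% and 88.3%, the highest share among the 10 genes. The strongest island over the HLA-DP genes ran from within HLA-DPA1 past the end of HLA-DPB1, over 22400 and 20000 bp, and its score stood at the 93.5 and 91.5 percentile. The promoter window of HLA-DPB1 was covered in both DMSO lists and with GSK126 in replicate 1, but not in replicate 2, while all 4 standard lists covered it. Unlike it, the CpG-rich window at the upstream start of HLA-DPA1 was covered over all 300 bp in every H3K27me3 list. The window at the downstream start of HLA-DPA1 had 300 and 224 bp covered with DMSO and 0 with GSK126 in the spike-in lists, but 224 bp in both GSK126 replicates in the standard lists.

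HLA-DMB (ENSG00000242574, chr6:32902406-32908805, minus strand), the beta chain of the peptide exchange factor, was covered almost throughout with DMSO, over 7795 and 8400 bp of 8400 bp. With GSK126 2995 and 4395 bp were left, or 38.4% and 52.3%. The part kept lay in the 3′ end of HLA-DMB, from 3.4 and 2.0 kb downstream of its start, and the promoter printed above was covered in neither GSK126 spike-in list, although it was covered in the GSK126 standard list of replicate 1. HLA-DMA (ENSG00000204257, chr6:32916390-32936871, minus strand), the alpha chain, had 2211 and 2611 bp covered with DMSO and 0 with GSK126. Its island lay 1.87 to 6.07 kb downstream of the canonical start and did not reach the promoter window in any list.

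Among the 10 genes, those that kept islands were those with the higher scores in the DMSO lists. The best island over CIITA, HLA-DMB and the HLA-DP genes stood at the 73.6 to 93.5 percentile of its list, and that of the 6 genes without islands after GSK126 at the 8.34 to 62.2 percentile. The score grows with the length of an island and the tags in it. Over all genes covered with DMSO in both replicates, the median share of cover left with GSK126 was 31.0% (quartiles 0% and 65.4%, 5533 genes). Of the class II genes, 6 were at 0%, HLA-DPA1 at 37.2% ± 8.3, HLA-DMB at 45.4% ± 9.8, CIITA at 48.9% ± 23.4 and HLA-DPB1 at 79.6% ± 12.4 (mean ± SD, n = 2).

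**Figure D2:**
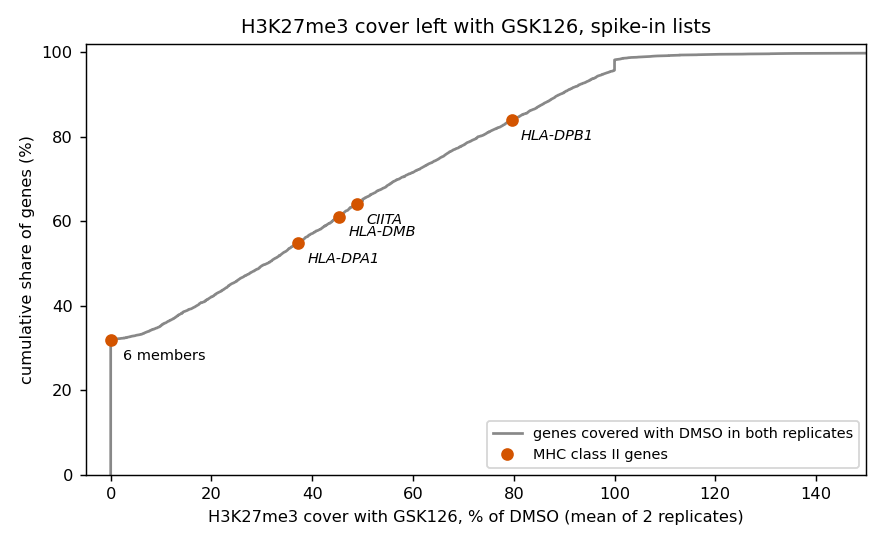
Cumulative distribution of the H3K27me3 cover left with GSK126 as a percentage of DMSO (horizontal axis, mean of 2 replicates, spike-in lists) over the 5533 genes covered with DMSO in both replicates (grey line; vertical axis, percentage of genes at or below that value; values above 150% are not shown). Orange points are the 10 class II genes, of which 6 share the point at 0% and 4 lie above the median of 31.0%.

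In the standard lists, where both treatments had the same number of human tags, the picture differed. Islands overlapped 7 of the 10 genes in both DMSO replicates and likewise 7 in both GSK126 replicates, against 25.5% and 21.1% of all genes. Only HLA-DQA1 and HLA-DMB were lower in both replicates, against 46% of all genes with an island, and none was higher in both, against 5.34%. HLA-DQA1 fell from 5800 and 5600 bp to 0 and was the sole class II gene to lose all islands, against 9.06%. HLA-DMB went from 8400 and 8395 bp to 7195 and 4395 bp. The decrease of HLA-DQA1 to 0 was therefore seen with and without the spike-in. CIITA had 35800 and 33800 bp with DMSO, against 36200 and 25200 bp after GSK126. HLA-DRA had 3023 and 3423 bp with DMSO, against 4223 and 1823 bp after GSK126. HLA-DQB1 had 5157 and 5357 bp with DMSO, against 7357 and 2400 bp after GSK126. In all 3 of these genes GSK126 gave more cover in replicate 1 and less in replicate 2.

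HLA-DRB1 had no standard-list island in DMSO replicate 1, where GSK126 gave 5600 bp, and fell from 6200 to 1600 bp in replicate 2. HLA-DPA1 stayed at 15952 and 11752 bp with DMSO against 16552 and 11152 bp with GSK126, and HLA-DPB1 at 15707 and 13473 bp against 14473 and 13673 bp. CD74 held an island of the standard lists in DMSO replicate 2 only, and HLA-DMA in no standard list. Over the 10 genes together the standard lists covered 81.1 and 83.8 kb with DMSO and 84.0 and 53.5 kb with GSK126. Replicate 1 gave a log2 ratio of 0.05 and replicate 2 one of -0.65, with a mean of -0.30 ± 0.49 (SD, n = 2), and the replicates therefore differed in direction. The genome gave -0.33 ± 0.17 (SD, n = 2) in the same lists.

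H3K4me3 cover was compared in the same way. CIITA had 6878 and 3678 bp covered by H3K4me3 islands with DMSO, against 7078 and 3800 bp after GSK126 in both the spike-in and the standard lists. HLA-DMA had 4471 and 3671 bp with DMSO, 5271 and 3671 bp after GSK126 in the spike-in lists, and 4671 and 3671 bp in the standard lists. The other 8 genes held no H3K4me3 island in any list. With GSK126, 67.9% of all genes held one in both replicates of the spike-in lists and 68.4% of the standard lists, and 60% had their canonical start in one in the spike-in lists, against 0 of the 10 class II genes. Neither gene lost its islands, which befell 0.345% and 0.176% of covered genes in the spike-in and standard lists. Within the stretch counted, neither CIITA nor HLA-DMA changed by at least 1 window in both replicates, in either direction. Of all genes, 33.8% were lower and 7.39% higher in the spike-in lists. Among all genes these shares were 34.2% and 6.33% with the standard lists. CIITA came closest, with 200 bp more in replicate 1 and 122 bp more in replicate 2. These values join 2 islands, of which the larger runs past the end of the stretch counted. At full length the larger went from 9400 and 3200 bp with DMSO to 7600 and 3000 bp with GSK126. The short one went from 1600 and 1000 bp to 3000 and 800 bp. The single island over HLA-DMA also runs past the end of its stretch, and its whole length fell after GSK126. In the spike-in lists it shortened from 12000 to 11800 bp (replicate 1) and from 8200 to 7800 bp (replicate 2). The standard lists gave 11200 and 8000 bp after GSK126. The larger HLA-DMA cover in replicate 1 therefore does not reflect a longer island. Over the 10 genes together the log2 ratio was 0.07 ± 0.07 in the spike-in lists, against -0.20 ± 0.01 for the genome (SD, n = 2). In the standard lists it was 0.04 ± 0.02 against -0.19 ± 0.11.

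Most of this H3K4me3 cover belonged by position to neighbouring genes. The island over HLA-DMA lay 12.7 to 14.3 kb from its canonical start and held the start of BRD2, which encodes a bromodomain protein and begins at chr6:32936371 on the opposite strand. The larger island over CIITA lay 60.5 to 63.1 kb downstream of the CIITA start. It held the start of DEXI at chr16:11036325, and in replicate 1 that of CLEC16A as well. When the canonical transcript and 2000 bp upstream were used in place of the whole gene, an alternative chosen after these positions were seen, CIITA alone was left.

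The remaining island of CIITA was a short one close to its start. It spanned 10972201 to 10973800 (1600 bp) and 10972001 to 10973000 (1000 bp) with DMSO, and 10971201 to 10974200 (3000 bp) and 10972401 to 10973200 (800 bp) with GSK126, the last pair being the same in the spike-in and the standard lists. It was longer with GSK126 in replicate 1 and shorter in replicate 2. In all 6 H3K4me3 lists it contained the annotated CIITA start at chr16:10972826, 1767 bp downstream of the canonical start and in the first intron of the canonical transcript. The canonical start itself was in no H3K4me3 island, although the GSK126 island of replicate 1 came within 142 bp of it. The annotation does not say which promoter of CIITA this is.

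The short H3K4me3 island lay inside an H3K27me3 island with DMSO and with GSK126, so both marks were called on the same bases, 1600 and 1000 bp with DMSO and 3000 and 800 bp with GSK126. CIITA was the sole class II gene with both marks on shared bases. Genes with such shared bases in both replicates made up 7.62% of all genes with DMSO and 3.28% with GSK126 in the spike-in lists, and 6.65% and 5.11% when the standard lists were used. The libraries do not tell whether both marks were on the same chromosomes or in different cells.

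**Figure D3:**
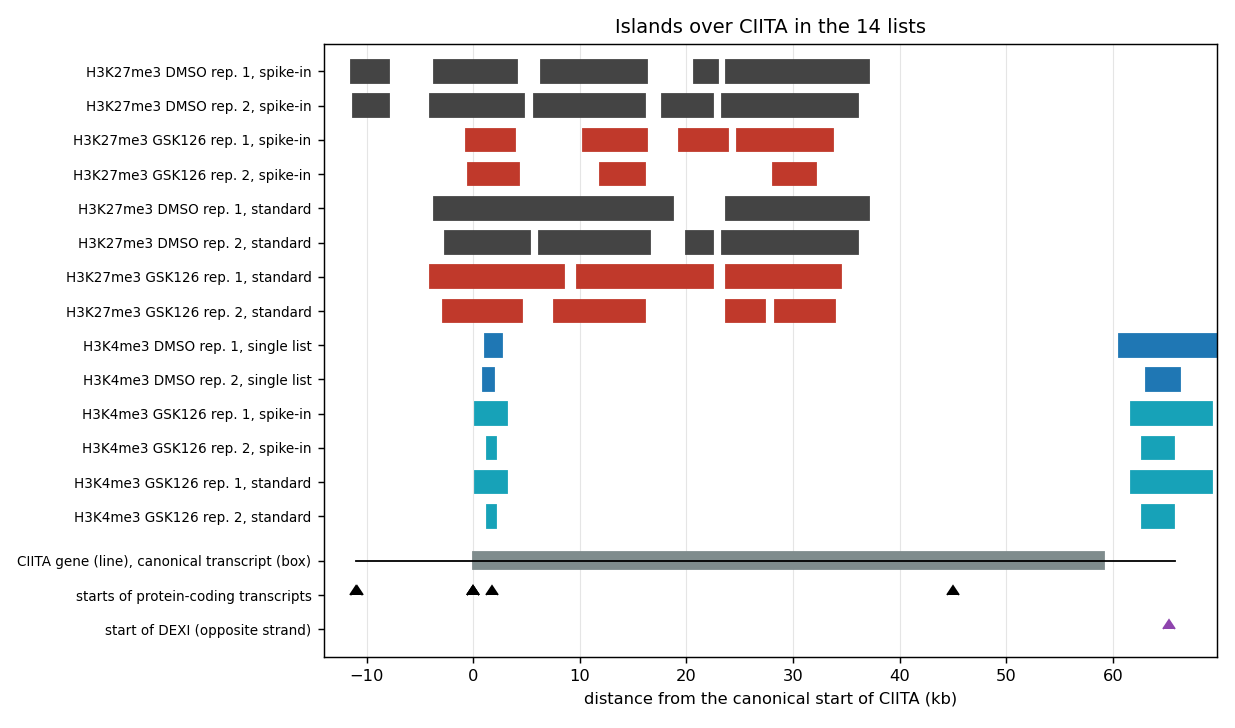
Islands over CIITA in the 14 lists, by distance from the canonical start in kb (horizontal axis; transcription runs to the right). Grey and red bars are H3K27me3 islands with DMSO and GSK126, dark and light blue bars H3K4me3 islands with DMSO and GSK126; the rows below show the gene, the starts of its protein-coding transcripts and the start of DEXI. The short H3K4me3 bars near 0 lie under an H3K27me3 bar in every list, and the first H3K27me3 bar on the left occurs in the spike-in DMSO rows only.

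The class II region of chromosome 6, from the start of HLA-DRA to the end of HLA-DPB1 (chr6:32407655-33057473), was rich in H3K27me3. With DMSO, spike-in islands covered 176.1 and 178.6 kb of it, or 27.1% and 27.5%, against 7.56% and 8.23% of the rest of the short arm. With GSK126 they covered 57.1 and 55.1 kb, or 8.78% and 8.48%, against 2.95% and 3.12%. Islands could thus be called in parts of this polymorphic region, which does not show that they could be called over each of its genes. With standard normalization 25.7% and 23.2% of the region was covered with DMSO and 24.8% and 15.4% with GSK126. Every H3K4me3 list held 5 islands there.

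**Figure D4:**
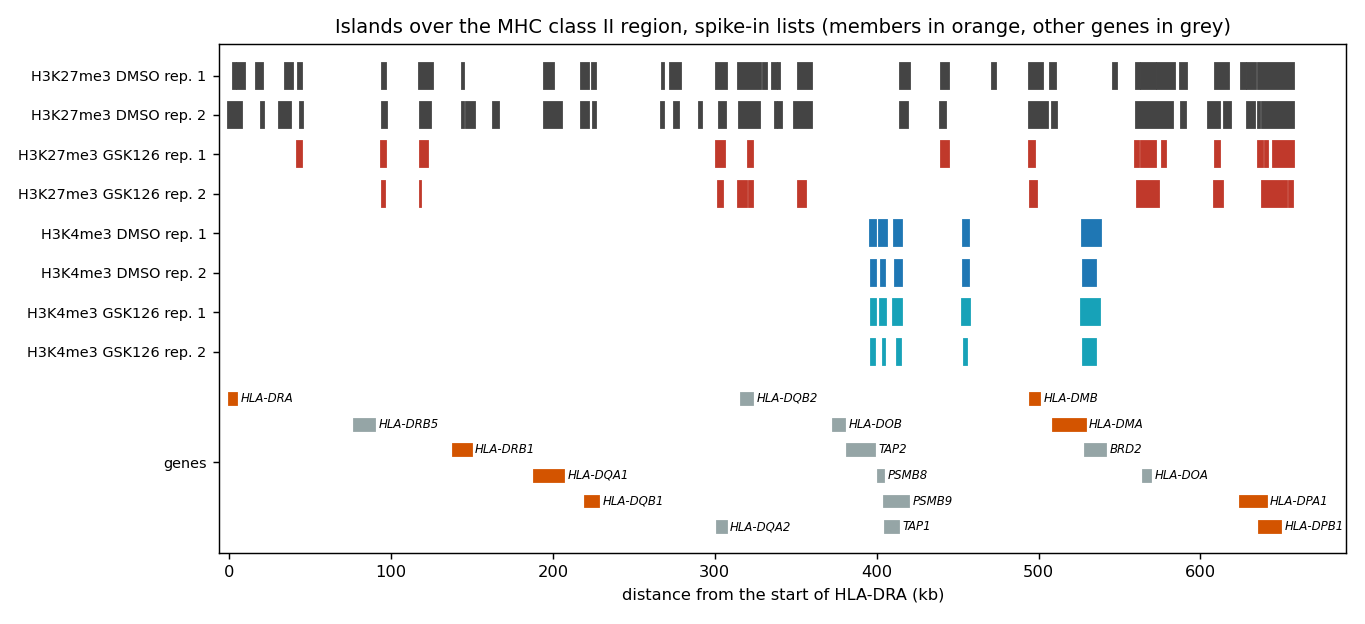
Islands over the class II region by distance from the start of HLA-DRA in kb (horizontal axis), in the spike-in H3K27me3 lists and the H3K4me3 lists (rows, 2 replicates per treatment; the H3K4me3 DMSO lists are the single lists). Class II genes described here are in orange and other genes in grey, on several lines so that names do not overlap. H3K27me3 bars run along the region with DMSO and are fewer with GSK126, down from 33 and 31 islands to 14 and 10, and the H3K4me3 bars stand at TAP and PSMB genes and at BRD2, with a further one between them.

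Other class II genes of the region did not all follow. HLA-DOA, whose product pairs with HLA-DOB to restrain HLA-DM, was covered over all 7410 bp of its stretch in each of the 8 H3K27me3 lists. In the spike-in lists HLA-DQA2 went from 6375 and 4600 bp with DMSO to 5200 and 3200 bp with GSK126, and HLA-DQB2 from 9435 bp in both replicates to 3200 and 6326 bp. The direction for HLA-DQA2 was the opposite in the standard lists, from 6375 and 5833 bp to 7633 and 6200 bp, and HLA-DQB2 went there from 9435 bp in both replicates to 9435 and 7835 bp. None of the 3 lost its islands, although the best island over HLA-DQA2 stood only at the 59.7 and 49.7 percentile of the DMSO spike-in lists. HLA-DRB5 and HLA-DOB held no H3K27me3 island in any list, and none of these 5 genes held an H3K4me3 island. HLA-DRB1 and HLA-DRB5, as well as the HLA-DQ pairs, resemble each other and vary between people. Tags from such stretches may not map uniquely, and what that removed was not tested.

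Of 16 neighbours of the class II genes, 5 held H3K27me3 islands in both DMSO libraries (NOTCH4, BTNL2, TAP1, PSMB9 and COL11A2), against 27.8% of all genes. All 5 were lower with GSK126 in the spike-in lists, as were 4902 of the 5533 genes covered with DMSO in both replicates. Both counts were thus near those of all genes. RING1 held 899 bp in DMSO replicate 2 only. TAP1 and PSMB9, which serve MHC class I presentation, overlap each other. TAP1 had 1593 and 1393 bp with DMSO and 0 with GSK126 in the spike-in lists, PSMB9 had 5628 and 4800 bp and 0, and both were at 0 with GSK126 in the standard lists as well. Unlike the class II genes, TAP1 and PSMB9 had H3K4me3 islands at their starts with both treatments.

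The factors that act upstream of the class II genes had H3K4me3 at their starts. All 7 class II promoter factors examined (RFX5, RFXAP, RFXANK, NFYA, NFYB, NFYC and CREB1) and all 5 genes examined of the interferon-gamma route (IFNGR1, IFNGR2, JAK1, JAK2 and IRF1) had their starts in H3K4me3 islands with DMSO and with GSK126. Over all genes 60.6% had their start in such an island with DMSO and 60% with GSK126. None of these 12 genes held an H3K27me3 island in both DMSO libraries, against 27.8% of all genes. In the spike-in lists H3K4me3 cover was lower in both replicates for 3 of the 7 factors (RFXAP, RFXANK and NFYC). It was lower for 0 of the 5 interferon-gamma genes, against 33.8% of all genes. In the standard lists 2 of the 7 and 2 of the 5 were lower, against 34.2%. Of 4 genes that process antigen for class II molecules, CTSL, LGMN and IFI30 had their starts in H3K4me3 islands, and CTSS, which encodes the protease cathepsin S, held no H3K4me3 island in any list.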

How the data were processed

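ChIP-seq with antibodies to H3K27me3 and H3K4me3 was carried out in PC9 cells. The authors aligned tags of 50 nt to hg19 (GRCh37) and to the fly genome with BWA, removed duplicates and ambiguous tags, removed human tags at random for each normalization, and called islands for each library with SICER (windows of 200 bp, gaps of 600 or 200 bp, E-value 1). SAMtools 0.1.18 is named in the submitters' processing notes. Each deposited list gives position and score, and the score depends on tag number, so it was used only to filter or rank within a list and to fit tags per window with SciPy 1.17.1.

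Python 3.11.15 with NumPy 2.4.6 served to compute covered bp over genes of GENCODE 44 mapped to GRCh37, and plots were drawn with Matplotlib 3.10.9. A gene was called lower or higher if cover differed by at least 200 bp in both replicates. Background shares are over protein-coding genes with an island in any list compared, or, for the share with an island or a start in one, over all protein-coding genes. Shares that lost or kept islands are over genes covered in both DMSO libraries. Cover queries and the tag fit were tested on simulated data. Replicates were paired as in the paper's list of libraries, because tags were removed within a replicate, and the labels do not number them. All 10 genes are named, and a gene of another list is named where it held an H3K27me3 island or lacked an H3K4me3 island with DMSO. A gene of the interferon-gamma list and a gene of the blood cell list are not reported here. The genes, lists and comparisons were chosen with earlier results of these data known. Alternatives were a stricter score, minimum island lengths of 2000 bp (H3K27me3) or 600 bp (H3K4me3), other stretches of each gene, a minimum difference of 1000 bp, a minimum overlap of 200 bp, CIITA and CD74 only, leaving out each replicate, no pairing, and the DMSO standard list against the GSK126 spike-in list. Tag counts per island and cells other than PC9 were not analysed here.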

Additional observations from a re-analysis of the deposited data

How the results depend on the processing

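Of 99 alternative values, 83 kept their direction and lay within the spread or within 1.5 times the count, 15 moved and 1 reversed. With 2 replicates, a log2 ratio with 1 replicate left out always lies within the SD of the mean. Such a value could therefore only stay or reverse. The counts with a minimum overlap of 200 bp all repeated the reported ones. The 83 is thus not a measure of how robust the results are. For H3K27me3 in the spike-in lists, the number of genes lower in both replicates went from 10 to 6 with the stricter score. In the standard lists it went from 2 to 1 with the stricter score and to 1 with the gene body alone, and was 8 in replicate 2 alone and 3 in replicate 1 alone. The number higher went from 0 to 1 in replicate 2 alone and 5 in replicate 1 alone. The log2 ratio of the standard lists, -0.30, ranged from -0.647 to 0.0523 when a replicate was left out, and it reversed without replicate 2. For H3K4me3, the log2 ratio of the spike-in lists (0.07) was 0.26 within 2000 bp of the starts and 0.29 for canonical transcripts. That of the standard lists (0.04) was 0.0607 with the stricter score, 0.26 and 0.29. Near the starts and over canonical transcripts only the short island of CIITA is left, and its replicates differ in direction. The number of genes higher went from 0 to 1 in both kinds of list with the stricter score, and ranged from 0 to 2 when a replicate was left out. The values for canonical transcripts and the counts without a replicate were added after the data were seen.

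Without the pairing, as a ratio of group means, the log2 ratios were -1.49 and -0.26 for H3K27me3 and 0.08 and 0.04 for H3K4me3 in the spike-in and standard lists, and no direction changed.

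Depth limits these results. The GSK126 spike-in lists of H3K27me3 hold far fewer tags per window than the DMSO lists, and H3K4me3 replicate 2 far fewer than replicate 1, so weak islands were the least detectable there. The lists hold no tag counts, and with 2 replicates no test of a single gene was made.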
